A study of Mus musculus with 4 samples.

Results

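The genes described here are 10 immediate early and stress response genes: Fos, Fosb, Jun, Junb, Egr1, Ier2, Atf3, Dusp1, Klf4 and Btg2. They were chosen by name, as genes that cells switch on quickly when tissue is handled or neurons are active. No value in the data entered the rule, but earlier results of these data were known when the genes were chosen. Of the 44290 spots of the array, 15 carry these symbols, and every one of the 10 genes has at least 1 spot. Of the 15 spots, 12 have a value on all 4 arrays (80.0%, against 55.4% of the 32042 spots with 1 gene symbol). These 12 spots give 9 genes of the 11791 genes measured on all arrays, and Atf3, with values on 3 arrays, is described apart.

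The arrays compared RNA from the telencephalon, the embryonic forebrain that forms the cerebral hemispheres, of 152F7 transgenic mice and of wild-type mice at E12.5, while the cortex forms its first neurons, both on the FVB background. The 152F7 line carries an artificial chromosome with a stretch of human chromosome 21 that includes the kinase gene DYRK1A, as general knowledge of the line has it. By the labels the 4 arrays are technical replicates, and the design text mentions pooled samples, so each genotype was taken as 1 RNA pool. The sample titles mark the RNA in Cy5 with the letter B and the RNA in Cy3 with A, for both genotypes, and do not say whether A and B are separate pools or labelling reactions of 1 pool. The sources used here do not give the number or sex of the embryos or the copies of the transgene. The 152F7 pool carried the dye Cy5 and the wild-type pool Cy3 on 2 arrays, and the dyes were exchanged on the other 2. With arrays labelled as technical replicates there is no test between genotypes and no p-value. An SD over the 4 arrays holds the error of labelling and hybridisation and any effect of the dyes. If A and B are separate pools, it also holds differences between them. If the values are Cy5 over Cy3 ratios, it also holds the difference between genotypes. In no case does it measure the spread between embryos.

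Each value is a log ratio of both pools on 1 array, read as log2, and says nothing of a gene's level. The deposited values were used as they stand, as ratios that run the same way between genotypes on all 4 arrays, which the labels do not state. Xist, expressed from the inactive X chromosome, had -3.532 and -3.376 with 152F7 in Cy5 and -3.330 and -3.269 with wild type in Cy5. The Y-linked Eif2s3y had 2.388 and 2.374 with 152F7 in Cy5 and 1.766 and 1.866 with wild type in Cy5. Neither gene changed sign when the dyes were exchanged. If A and B are labelling reactions of 1 pool, these signs go with ratios that run one way, and genes that mark sex differed between the genotypes' pools. If A and B are separate pools, plain Cy5 over Cy3 ratios could keep these signs too, through a difference between B and A, and so the direction is not settled. Nor do the labels or values say which genotype would stand on top of a ratio that runs one way, so the sides of the ratio are called numerator and denominator pool. The values that would hold for Cy5 over Cy3 ratios, turned to 152F7 over wild type, are given as the turned reading.

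Immediate early genes are transcribed within minutes of a stimulus without new protein synthesis. Kinase cascades reach factors already bound at their promoters, among them SRF at CArG boxes and CREB at cyclic AMP response elements (CREs), and the messages decay quickly afterwards. Fos and Jun proteins pair through leucine zippers into the AP-1 factor, Egr1 is a zinc finger factor, and Dusp1 is a phosphatase that switches MAP kinases off again. In brain tissue these genes are widely used as marks of neuronal activity and of stress during dissection.

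RefSeq promoter windows (GRCm38.p6) were found for 8 of the 10 genes, not for Egr1 and Ier2. Over the 250 bases before the start, the core of the CRE, TGACG on either strand, occurs in 7 of these 8 windows, against 17.8% of all 32851 promoter windows. The full CRE, TGACGTCA, which holds that core on both strands, occurs in 2 of the 8, those of Btg2 and Dusp1 (1.55% of all windows). The AP-1 site TGANTCA (6.75% of all windows) and the CArG box (1.47%) were matched in 0 of the 8 windows, and the EGR site GCGNGGGCG in 3 of 8 (4.70%). These matches describe the letters of a short window and are not binding sites, and bases further upstream were not searched. Shown 5′ to 3′, with these cores and full CREs in capitals, are the windows of Fos, the founding member of the family (chr12:85473640-85473889, plus strand), of Junb (chr8:84978749-84978998, minus strand) and Dusp1 (chr17:26508473-26508722, minus strand), whose ratios differed most between dye orientations, and of Btg2 (chr1:134079156-134079405, minus strand), which had the lowest mean ratio.
Fos: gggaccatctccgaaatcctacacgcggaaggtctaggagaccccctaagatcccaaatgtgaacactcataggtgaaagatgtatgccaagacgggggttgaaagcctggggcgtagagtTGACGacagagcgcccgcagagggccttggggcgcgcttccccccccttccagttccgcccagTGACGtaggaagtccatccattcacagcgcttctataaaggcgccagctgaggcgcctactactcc
Junb: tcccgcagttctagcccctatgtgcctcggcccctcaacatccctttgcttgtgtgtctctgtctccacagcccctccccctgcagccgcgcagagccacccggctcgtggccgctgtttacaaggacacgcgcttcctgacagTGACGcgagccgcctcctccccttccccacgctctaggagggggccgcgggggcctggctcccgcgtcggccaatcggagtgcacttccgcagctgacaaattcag
Dusp1: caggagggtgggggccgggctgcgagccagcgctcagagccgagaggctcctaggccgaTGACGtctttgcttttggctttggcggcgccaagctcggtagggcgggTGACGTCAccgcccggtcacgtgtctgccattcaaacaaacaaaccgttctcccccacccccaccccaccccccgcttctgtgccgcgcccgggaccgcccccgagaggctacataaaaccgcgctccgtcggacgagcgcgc
Btg2: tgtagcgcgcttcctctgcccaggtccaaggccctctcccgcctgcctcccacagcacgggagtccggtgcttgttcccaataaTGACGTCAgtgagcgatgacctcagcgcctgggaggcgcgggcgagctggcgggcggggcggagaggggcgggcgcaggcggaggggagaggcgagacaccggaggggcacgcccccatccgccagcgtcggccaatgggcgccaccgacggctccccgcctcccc

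With the values as deposited, none of the 9 genes measured on all arrays reached a 1.1-fold mean difference between the pools. The call asked for a mean ratio of at least 1.1-fold (0.1375 on the log2 scale) with the same sign on all 4 arrays. Of all 11791 genes, 403 were higher in the numerator pool by this rule (3.42%) and 171 were lower (1.45%), while 0 of the 9 members passed in either direction. Without the demand on sign the count was 0 as well. The median of the members' mean log2 ratios was 0.04, beside 0.0021 over all genes. Its sign rests on 1 array, since without replicate 2 of 152F7 in Cy5 the median was -0.0028, beside 0.0055 over all genes. Klf4 had the highest mean of the values as deposited, 1.06-fold, and Btg2 the lowest, 1.04-fold in the other direction. In the turned reading Klf4 would be at -0.03 and Btg2 at -0.04. Junb would be highest at 0.28 and would be the 1 member past the 1.1-fold rule. The mean was smaller than the SD over the arrays for 7 of the 9 genes, and for 75.5% of all genes.

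**Figure D1:**
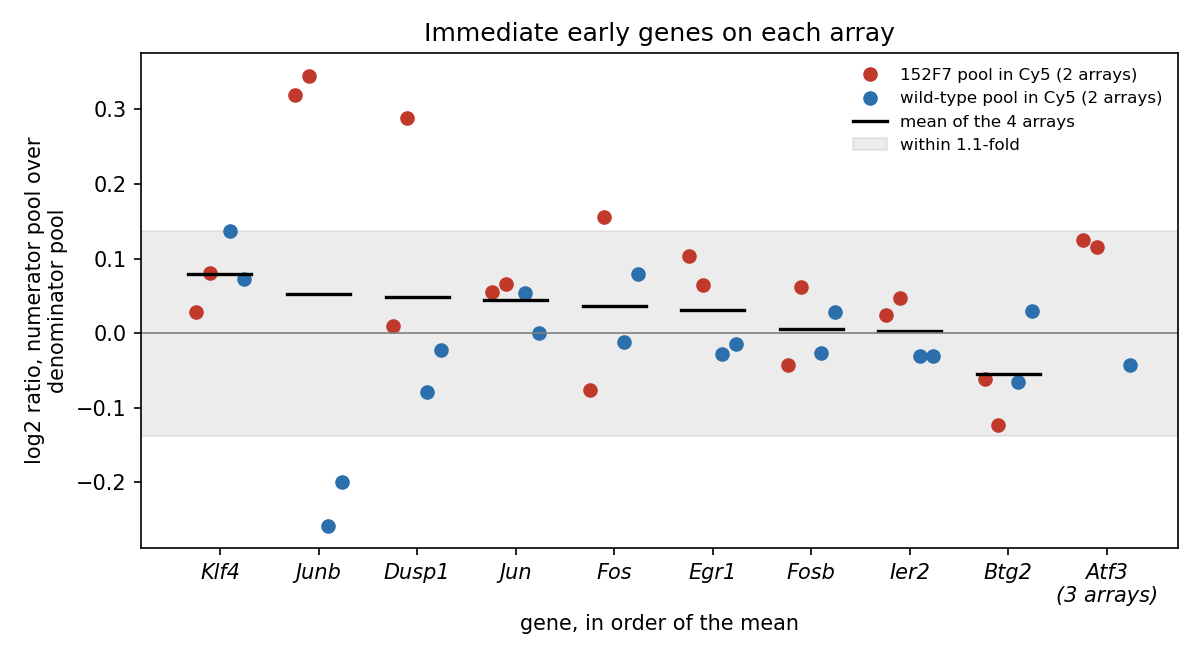
Log2 ratio (vertical axis) of each gene on each array, red for 152F7 in Cy5 and blue for wild type in Cy5, with the mean as a black line and the range within 1.1-fold in grey; Atf3, with values on 3 arrays, has no mean line. All 9 means lie between -0.06 and 0.08, and the red and blue points of Junb lie apart on opposite sides of 0.

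Among the AP-1 genes, Fos had log2 ratios of -0.076 and 0.156 with 152F7 in Cy5 and of -0.012 and 0.080 with wild type in Cy5. Its mean was 0.04 ± 0.10 (SD, n = 4 technical arrays, as for all values below), and both orientations held an array on each side of 0. Another Fos spot had a value on 1 array only, -0.059. Fosb, a paralogue of Fos that also pairs with Jun proteins, had -0.043 and 0.062 with 152F7 in Cy5 and -0.026 and 0.029 with wild type in Cy5, a mean of 0.0055 ± 0.049. For Fos and Fosb the 2 arrays of one orientation lay further apart than the 2 orientation means, which differed by 0.0060 and 0.0080.

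Jun, the DNA-binding partner of Fos proteins in AP-1, had 0.056 and 0.066 with 152F7 in Cy5 and 0.054 and 0.001 with wild type in Cy5. It was thus above 0 on all 4 arrays, as were 12.8% of all genes, at a mean of 0.04 ± 0.03 or 1.03-fold. Its lowest array was at 0.001.

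Junb, a Jun paralogue that can restrain Jun at some targets, is measured by 2 spots that went apart. The spot numbered 42024 had 0.549 and 0.504 with 152F7 in Cy5 and -0.489 and -0.422 with wild type in Cy5. The spot numbered 26438 had 0.091 and 0.187 with 152F7 in Cy5 and -0.027 and 0.024 with wild type in Cy5. The arrays of one orientation agreed closely at the first spot, while its orientations lay far apart on opposite sides of 0. The means over all arrays were close, 0.04 for the first spot and 0.07 for the second. The difference between orientations, 152F7 in Cy5 minus wild type in Cy5, was 0.98 at the first spot and 0.14 at the second. In size the first lies at the 99.96th percentile of all named spots with values on all arrays. The spread of that difference between both Junb spots, 0.84, was at the 99.5th percentile of the 4353 genes with more than 1 spot, whose median was 0.18. Averaged over its spots, Junb had a mean of 0.05 ± 0.33, and the turned reading would give 0.28, that is 1.21-fold higher in 152F7. In that reading Junb would be the 1 member of 9 past the 1.1-fold rule, higher in 152F7 beside 4.49% of all genes, and 0 members would be lower beside 2.39%. By spot the turned values of Junb would be 0.49 and 0.07.

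Atf3, a stress-induced factor of the ATF family that often acts as a repressor, had 0.125 and 0.116 with 152F7 in Cy5 and -0.043 on the 1 wild-type-in-Cy5 array that held a value. Its arrays thus differed in sign between orientations, as those of Junb did. With each orientation weighted equally its mean was 0.04, within the range of the other members.

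Egr1, a zinc finger factor induced by growth factors and neuronal activity, had 0.104 and 0.065 with 152F7 in Cy5 and -0.028 and -0.014 with wild type in Cy5, a mean of 0.03 ± 0.06. Klf4, a zinc finger factor known for its part in reprogramming cells to pluripotency and in endothelium, had 0.029 and 0.081 with 152F7 in Cy5 and 0.137 and 0.073 with wild type in Cy5. Klf4 and Jun were the 2 members above 0 on all 4 arrays, and 0 members lay below 0 on all arrays (9.86% of all genes did). The Klf4 mean of 0.08 ± 0.04 lay at the 88.0th percentile of all genes. Of 7 measured endothelial markers 1 was higher by the 1.1-fold rule, beside 3.42% of all genes. That marker was the VEGF receptor gene Kdr at 0.24 ± 0.04, and its part in the Klf4 value was not tested.

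Ier2, a small nuclear protein induced with the first wave of these genes, had 0.025 and 0.047 with 152F7 in Cy5 and -0.031 and -0.030 with wild type in Cy5. The orientations lay on opposite sides of 0 and nearly cancelled, at a mean of 0.0028 ± 0.039. A second Ier2 spot, with 3 values, went the other way, at -0.188 with 152F7 in Cy5 and 0.014 and -0.041 with wild type in Cy5. With this spot included and each orientation weighted equally, the Ier2 mean was -0.05.

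Dusp1, the MAP kinase phosphatase, had 0.010 and 0.288 with 152F7 in Cy5 and -0.079 and -0.023 with wild type in Cy5, a mean of 0.05 ± 0.16. Its 152F7-in-Cy5 arrays differed by more than the orientations did, and the SD within orientations, 0.14, lay at the 96.6th percentile of all genes. Without replicate 2 of 152F7 in Cy5 the Dusp1 mean was -0.02, and those of Fos, Fosb and Ier2 were also below 0, at -0.02, -0.02 and -0.0028.

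Btg2, an antiproliferative gene that recruits mRNA deadenylases and marks neurogenic divisions of cortical progenitors, was the only member with a mean below 0. Averaged over its 3 spots it had -0.062 and -0.123 with 152F7 in Cy5 and -0.065 and 0.029 with wild type in Cy5, a mean of -0.06 ± 0.06. The 3 spot means were -0.09, -0.06 and -0.02, all below 0, and no spot was below 0 on all 4 arrays. Of 10 measured genes of neurogenic progenitors 0 were higher and 0 lower by the 1.1-fold rule, with a median of 0.00088, and 5 of the 10 means were above 0 and 5 below. They ranged from -0.16 for Sox4 to 0.09 for Neurog2, both factors of neuronal differentiation.

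In order of their means as deposited the 9 genes ran Klf4, Junb, Dusp1, Jun, Fos, Egr1, Fosb, Ier2 and Btg2. Of the 8 gaps between neighbours 7 were smaller than both neighbours' SDs, and the gap from Ier2 to Btg2, 0.06, was larger than the SD of Ier2 but not that of Btg2. Between the ends of the order, the Klf4 ratio was above the Btg2 ratio on all 4 arrays, by 0.14 ± 0.08. A positive mean gap follows from picking the ends, so this is a description only. The turned reading would give another order, with Junb at 0.28, Dusp1 at 0.10, Egr1 at 0.05, Ier2 at 0.03, Jun at 0.02, Fosb at 0.0040, Fos at 0.0030, Klf4 at -0.03 and Btg2 at -0.04.

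The sign of the ratio differed between dye orientations in 4 of the 9 members. For the gene values of Junb, Dusp1, Egr1 and Ier2 both arrays with 152F7 in Cy5 lay above 0 and both with wild type in Cy5 below 0. By spot this did not always hold. The Junb spot numbered 26438 had -0.027 and 0.024 with wild type in Cy5. The second Ier2 spot, not measured on all arrays, had -0.188 with 152F7 in Cy5. This pattern held in 4 of the 9 members, beside 20.0% of all genes, and the reverse pattern in 0 of the 9, beside 10.8%. The differences between orientations, 152F7 in Cy5 minus wild type in Cy5, were 0.56 for Junb, 0.20 for Dusp1, 0.11 for Egr1 and 0.07 for Ier2. The differences of Klf4, Jun, Fos, Fosb and Btg2 were smaller than that of Dusp1 and ranged from -0.07 for Btg2 to 0.03 for Jun. In the turned reading the median of the members was 0.02, beside 0.01 over all genes. The shares of members rest on 9 genes, so 1 gene moves them by much.

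**Figure D2:**
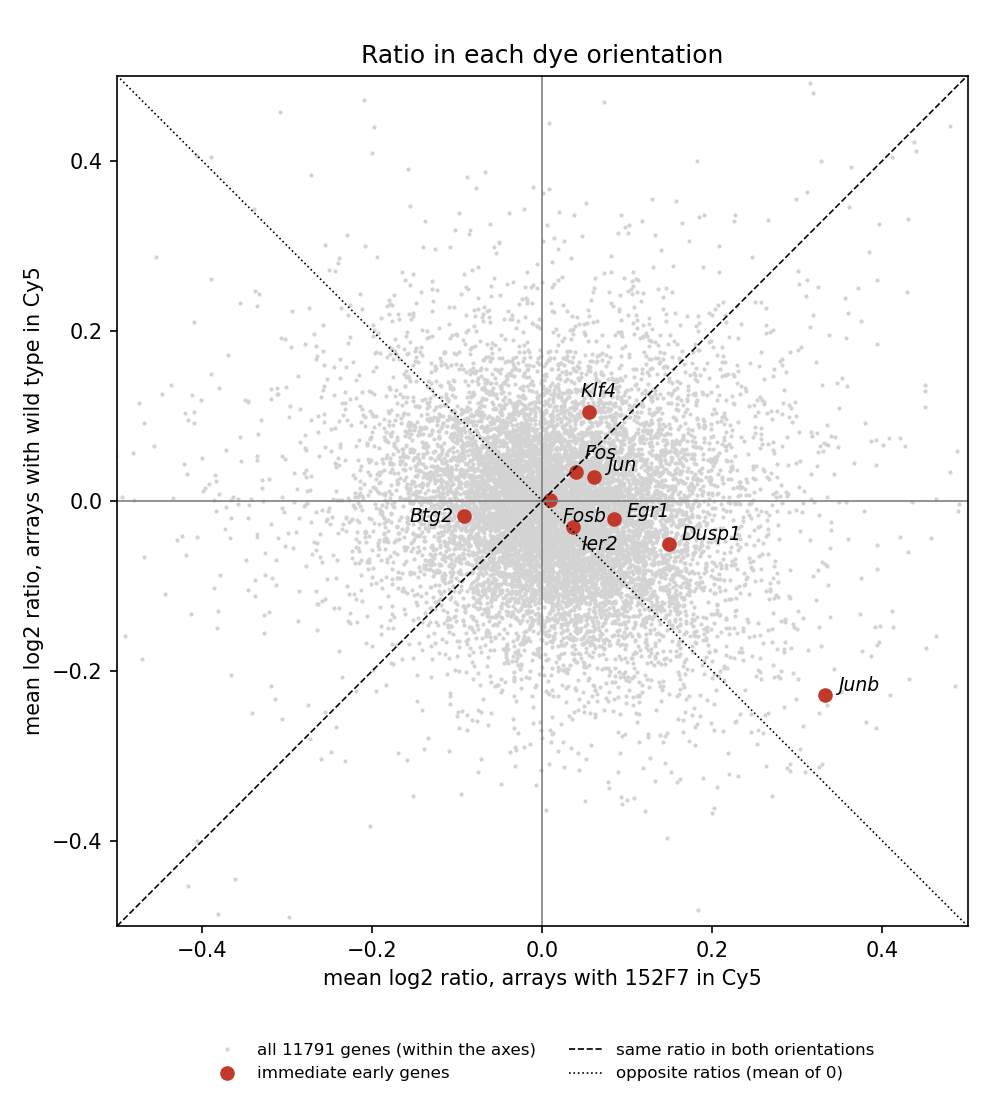
Mean log2 ratio of each gene on the 2 arrays with 152F7 in Cy5 (horizontal axis) against that on the 2 wild-type-in-Cy5 arrays (vertical axis), with the members in red and other genes in grey. A gene on the dashed line has the same ratio in both orientations and a gene on the dotted line has opposite ratios; Junb lies far out along the dotted line, at 0.33 and -0.23.

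The related genes of 11 fixed lists were mostly as close to 0 as the members. Of 149 genes listed 120 were measured on all arrays, and of these 4 were higher in the numerator pool by the 1.1-fold rule (3.33%, near the 3.42% of all genes) and 0 were lower. Their median was 0.02. In the turned reading 6 of the 120 would be higher in 152F7 and 5 lower, beside 4.49% and 2.39% of all genes. The orientations lay on opposite sides of 0 in 30.8% of them, the same share as among all genes.

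Of the other AP-1 and small Maf genes, 0 of 7 measured genes were higher and 0 lower (median 0.0081). Jund, a Jun paralogue that is less inducible, had -0.169 and -0.177 with 152F7 in Cy5 and 0.084 and 0.107 with wild type in Cy5, the opposite split to that of Junb. Fosl1 and Fosl2 were not measured on all arrays. Of the EGR, NR4A and NAB genes, 0 of 5 were higher and 0 lower (median 0.03). Nr4a1, an orphan nuclear receptor induced with Egr1, had 0.253 and 0.301 with 152F7 in Cy5 and -0.128 and -0.099 with wild type in Cy5, at a mean of 0.08 ± 0.23. Egr2 had the lowest mean of that list, -0.20 ± 0.44, which rests on 1 array, at -0.853 beside 0.107, 0.033 and -0.099 on the others. Jund, Nr4a1 and Egr2 were chosen for mention after their values were seen.

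Other immediate early genes held 3 of the 4 calls. Of 26 measured genes 3 were higher and 0 lower (median 0.03), beside 3.42% and 1.45% of all genes. In the turned reading 2 genes of this list would be higher in 152F7 and 3 lower (median -0.02), beside 4.49% and 2.39% of all genes. Cebpd, a factor of acute phase and stress responses, had 0.161 and 0.193 with 152F7 in Cy5 and 0.088 and 0.262 with wild type in Cy5, a mean of 0.18 ± 0.07. Ccn2, a matricellular protein and target of SRF and YAP, had 0.135 and 0.102 with 152F7 in Cy5 and 0.171 and 0.243 with wild type in Cy5, a mean of 0.16 ± 0.06. Zfp36l1, which drives decay of AU-rich messages, had a mean of 0.14 ± 0.08 over 2 spots. All 3 were above 0 on every array, and the largest ratio among them, that of Cebpd, was 1.13-fold. Mesenchyme markers were higher alongside them, in 5 of 7 measured genes with list medians of 0.21 to 0.29 on the 4 arrays, among them Dcn at 0.43 ± 0.06 and Col1a1 at 0.34 ± 0.05, and their part in these 3 values was not tested. Myc, an early growth response gene chosen after its value was seen, had the same sign on all arrays at 0.08 ± 0.02 and stayed under 1.1-fold.

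Genes of neuronal activity gave 0 higher and 0 lower of 8 measured (median 0.0086). Arc, a synaptic protein that is a standard mark of neuronal activity, had 0.085 and 0.038 with 152F7 in Cy5 and -0.010 and -0.047 with wild type in Cy5, at a mean of 0.02 ± 0.06. Npas4 was not measured on all arrays. Of the other MAP kinase phosphatases and feedback inhibitors 0 of 13 were higher and 0 lower (median 0.04), with Dusp2 nearest to the threshold at 0.13 ± 0.10. Of the upstream SRF, CREB and MAP kinase genes 0 of 15 were higher and 0 lower (median 0.0044). Srf itself had -0.02 ± 0.16. Creb1 had -0.04 ± 0.03 and was below 0 on all 4 arrays. Arc, Dusp2, Srf and Creb1 were named after their values were seen.

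Stress genes outside the immediate early class showed 1 call. Of 10 heat shock genes 0 were higher and 0 lower (median 0.01), and Hspa1a, the stress-inducible HSP70, had -0.15 ± 0.21 with -0.436 on 1 array. Of 17 genes of the unfolded protein and integrated stress responses 1 was higher and 0 lower (median 0.04), beside 3.42% and 1.45% of all genes. The gene called higher was Atf5, a factor translated under stress that also acts in neural progenitors, at 0.16 ± 0.04. It had 0.158 and 0.097 with 152F7 in Cy5 and 0.196 and 0.179 with wild type in Cy5. Ddit4, an inhibitor of mTORC1 induced by hypoxia and stress, had the lowest mean of the list at -0.24 ± 0.42, with -0.514 and -0.647 with 152F7 in Cy5 and -0.080 and 0.264 with wild type in Cy5. Hspa1a and Ddit4 were chosen after their values were seen. Of 9 other KLF genes 0 were higher and 0 lower (median 0.0086), and of 5 other BTG/TOB and CCR4-NOT genes 0 were higher and 0 lower (median -0.01).

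**Figure D3:**
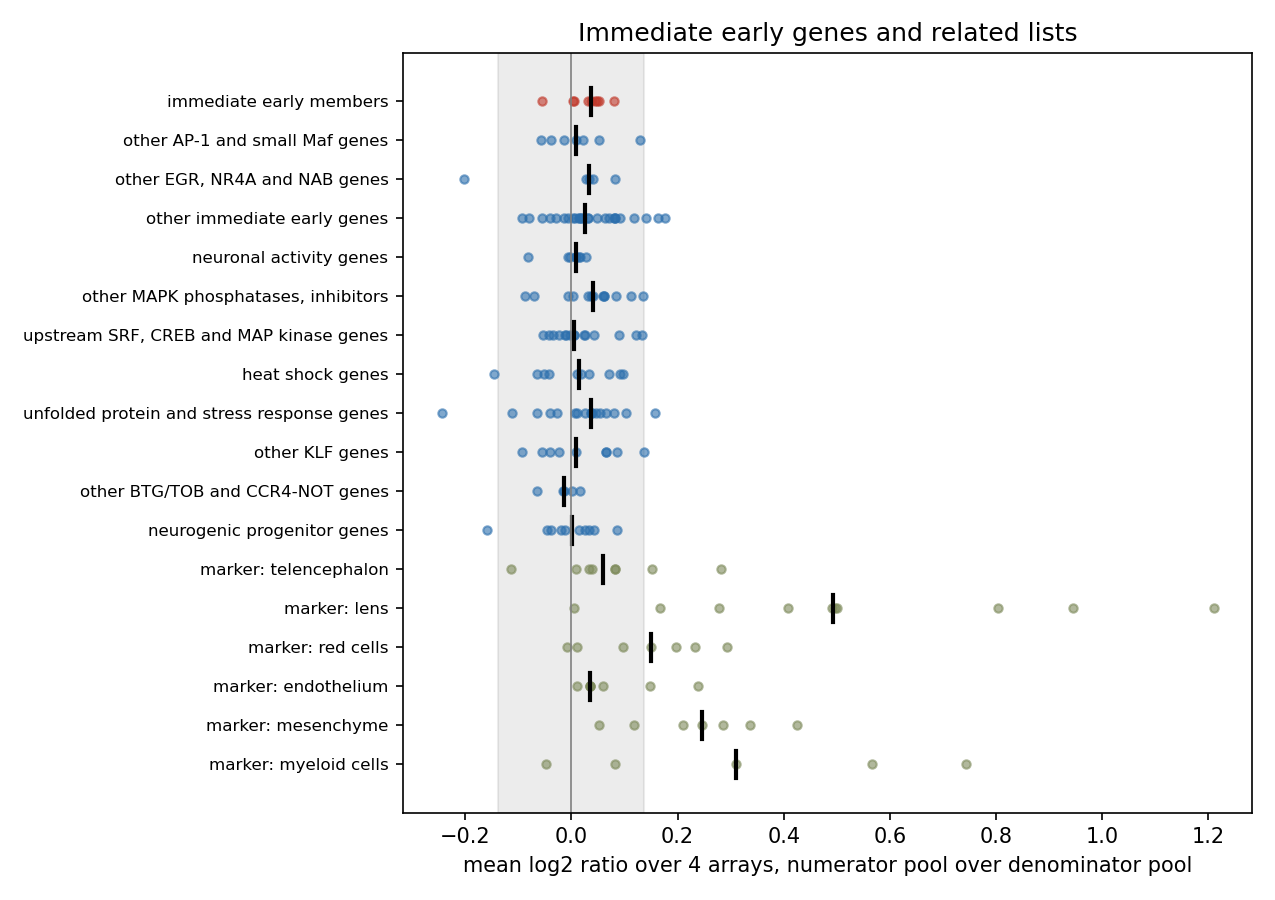
Mean log2 ratio over the 4 arrays (horizontal axis) of each measured gene, by list, with list medians as black bars and the range within 1.1-fold in grey. The members (red, top) and the related lists (blue) centre near 0, while lens, mesenchyme, red cell and myeloid markers (green) extend to the right.

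The values as deposited also departed from 0 in markers of lens, red cells and myeloid cells. By the 1.1-fold rule 9 of 10 lens genes were higher in the numerator pool (median 0.49, with Cryba1 at 1.21 ± 0.01 and Cryaa at 0.95 ± 0.12), as were 4 of 7 red cell genes (median 0.15, with Hba-x at 0.29 ± 0.26 and Hba-a1 at 0.23 ± 0.10), and 3 of 5 myeloid genes (median 0.31, with S100a9 at 0.74 ± 0.08 and Lyz2 at 0.57 ± 0.07). Of 7 endothelial genes 1 was higher (median 0.04, with Cdh5 at 0.15 ± 0.36). Of 8 measured telencephalic markers 1 was higher, Lhx2 at 0.28 ± 0.12, and 0 were lower (median 0.06). Nkx2-1 had 0.15 ± 0.22. Of the 8 means 7 were above 0 and 1 was below. That was Gsx2 at -0.11, below 0 on all 4 arrays and named after its value was seen. In the turned reading 0 of 10 lens genes would pass in either direction (median 0.0029), and 0 myeloid genes would. Of the red cell genes 0 would be higher in 152F7 and 1 lower, while 1 mesenchyme and 1 telencephalic gene would be higher. Of all genes 4.49% would be higher and 2.39% lower in that reading. Ratios cannot show whether a marker was present at a high level. Fewer cells of a type and less RNA per cell cannot be told apart in such pools.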

How the data were processed

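The deposited table gives 1 log2 ratio per spot and array for 44290 spots. Its log base, direction, background correction, normalization and the filter behind empty cells were not given in the sources used here. These deposited values were read as log2, since the largest size, 5.76, exceeds the 4.82 that a log10 ratio can reach on a 16-bit scanner. Per the labels, 1 ug of total RNA was amplified and labelled for each channel. Spots were named through the platform annotation, with symbols checked by Entrez identifier against GRCm38.p6 (31906 of 32042 spots with 1 symbol matched and 0 symbols changed), and 47 spots with several symbols were left out. Each gene was given the average of its spots' 4-array means, over spots with values on all 4 arrays. Between a gene's first 2 spots the Pearson correlation across 4352 genes was 0.42 for the values as deposited and 0.097 for turned ones; between arrays, across 11791 genes, it was 0.63 and 0.74 within an orientation and 0.038 to 0.086 between orientations (descriptions, with genes not independent). These values do not settle the direction. The arrays were taken as technical repeats of 1 pool pair, so no test was run, and precision is limited by the number of arrays. The members and lists were chosen with earlier results of these data known. The text names all members, of each pathway list at most 3 called genes per direction, and the 2 largest of each marker list; others are marked where named. Python 3.11.15, pandas 2.3.3 and NumPy 2.4.6 were used.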

Additional observations from a re-analysis of the deposited data

Results flagged for a closer look

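The 9 members and the called or marker genes named by rule made 25 genes in all. Of these, 5 had both arrays of one dye orientation on one side of 0 and both of the other on the opposite side. Of all genes 30.8% show this pattern, but the shares are not comparable. Called genes had the same sign on all 4 arrays by rule and could not show it. Marker genes were picked by the size of the mean, which works against it. The mean with 152F7 in Cy5 minus that with wild type in Cy5 was 0.56 for Junb, 0.20 for Dusp1, 0.11 for Egr1, 0.067 for Ier2 and 0.37 for the ventral telencephalic factor Nkx2-1. These differences were not tested. The alpha-type globin Hba-a1 stood out because 1 of its 4 arrays, replicate 1 of wild type in Cy5, lay far from the others, with a gap of 0.883 of the whole range. If the 4 arrays were independent, chance would mark about 1 in 20 genes in this way. Arrays of one orientation were more alike than arrays of different orientations, so the rate here is unknown. Of the 25 genes examined 1 was marked.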

How the results depend on the processing

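The count of members past the 1.1-fold rule was 0 in both directions with natural logs, with spots measured in at least 1 array of each orientation, with the median or nearest-to-0 spot per gene, with arrays centred on their medians, without the noisiest 25% of spots, without any 1 array, at 1.2-fold and without the demand on sign. The turned reading gave 1 higher member, Junb, beside 530 of all 11791 genes. The arrays with 152F7 in Cy5 alone gave 2 higher members, Junb and Dusp1, beside 1445 of all genes, and 0 lower beside 801. Those with wild type in Cy5 alone gave 1 lower member, Junb, beside 951 of all genes, and 0 higher beside 742. The members' median was -0.018 with wild type in Cy5 alone, 0.06 with 152F7 in Cy5 alone and 0.05 with natural logs, and it ranged from -0.0028 to 0.05 without 1 array, lowest without replicate 2 of 152F7 in Cy5. A single orientation keeps the dye effect, by construction. Each value is already a ratio of both pools on 1 array, and no further pairing was made. With arrays labelled as technical replicates no test between genotypes was run. Apart from the turned reading and the single orientations, Klf4, Junb, Jun, Egr1 and Btg2 kept the sign of their means in all 10 settings. Ier2 and Fosb kept it in 8 of 10, and Dusp1 and Fos in 8 of 9. Natural logs cannot change a sign, nor can the median or nearest-to-0 spot for a gene with 1 spot. In the settings left out, Klf4 was at -0.025 turned. Egr1 was at -0.021 and Junb at -0.23 with wild type in Cy5 alone, while Jun and Btg2 kept their signs there too. Signal over background is unknown.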
